A study of Mus musculus with 8 samples.

Results

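The 10 genes described here carry the transforming growth factor beta (TGF-beta) signal in T cells: the ligand gene Tgfb1, the receptor genes Tgfbr1, Tgfbr2 and Tgfbr3, the signal transducers Smad2, Smad3 and Smad4, and the inhibitors Smad7, Skil and Ldlrad4. They were chosen by name, with earlier results of these data known, so their counts beside those of all genes are descriptive. Each gene is described by its brightest probe set, the one whose mean level over the 8 arrays was highest, and its other probe sets serve as a check. All 10 genes passed the filter on low values, among 11178 genes tested of 18193 on the array, and 22 of their 26 probe sets passed it.

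TGF-beta is secreted in a latent form and, once released, binds a pair of kinase receptors, of which the type II receptor phosphorylates the type I receptor. The type I receptor then phosphorylates Smad2 and Smad3, which join Smad4 and enter the nucleus to switch genes on or off. In helper T cells the pathway restrains Th1 and Th2 differentiation, helps to induce Th17 and regulatory T cells, and is limited by inhibitors that its own targets encode.

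Expression arrays were made from 4 kinds of mouse helper T cell, with 2 arrays for each. T follicular helper (Tfh) cells, which help B cells, were CD4+ CXCR5+ cells sorted by flow cytometry from the spleens of C57BL/6 mice on day 7 after immunization with keyhole limpet haemocyanin (KLH), and they were stimulated again for 4 h with anti-CD3. Th17, Th1 and Th2 cells were naive CD4 T cells from spleen and lymph node of OT-II mice, which carry a transgenic T cell receptor on a C57BL/6 background and were 6 to 8 weeks old, and they were cultured for 5 days with OT-II peptide and antigen-presenting cells (APC). The Th17 cultures received IL-6, TGFb, anti-IL-4 and anti-IFNg, the Th1 cultures IL-12 and anti-IL-4, and the Th2 cultures IL-4 and anti-IFNg, so of the cultured types Th17 cells were the one given the ligand of this pathway. The labels give no age for the Tfh mice, and do not say whether the 2 arrays of a group came from separate animals or cultures, so p-values measure the spread between arrays, which may be technical. Origin, antigen, stimulation and cell type all change together between the Tfh group and the cultured groups and cannot be told apart, and in such bulk samples fewer cells of a type cannot be told apart from less RNA per cell.

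The deposited values were higher in the Tfh arrays for most genes: the median log2 level over all probe sets was 3.46 and 3.44 there and lay between 3.04 and 3.08 in the 6 cultured arrays, and the median tested gene was 0.84 log2 units above the cultured mean (the average of Th17, Th1 and Th2 cells). Which arrays the authors normalized together is not given in the sources used here, and its part in the Tfh differences was not tested. Calls were also made in 2 other scalings, with the arrays shifted to a common median and with quantile normalization. The 2 Tfh arrays were closer to each other than any other pair, with 11 tested genes differing by over 1 log2 unit, against 1339 between the Th17 arrays, 1435 between the Th1 arrays and 696 between the Th2 arrays. T cell markers were above the filter in every array (8 of 8), and Cxcr5, the surface marker of the sort, was at 11.25 and 11.20 in Tfh arrays, against 3.34 to 8.12 in the cultured arrays. Il17a was at 14.35 and 13.93 in Th17 arrays, against 8.67 to 10.98 in all others. Ifng was at 15.39 and 15.07 in Th1 arrays, against 10.72 to 14.12, and Il4 at 15.20 and 15.57 in Th2 arrays, against 3.46 to 10.60. Not every marker followed its type. The Th17 marker Rora was at 11.79 and 11.82 in Tfh arrays and 9.68 and 10.64 in Th17 arrays. Il1r1, also a Th17 marker, was at 9.57 and 9.42 in Tfh arrays and 8.54 and 8.02 in Th17 arrays. The Th2 marker Gata3 was at 10.67 and 10.52 in Tfh arrays and 10.44 and 11.13 in Th2 arrays. Ccr4, also a Th2 marker, was at 6.64 and 8.10 in Th17 arrays and 6.68 and 7.95 in Th2 arrays. The Th1 marker Cxcr3 was at 11.30 and 11.23 in Tfh arrays and 7.06 and 9.60 in Th1 arrays. Stat4, also a Th1 marker, was at 13.03 and 13.05 in Tfh arrays and 11.51 and 11.95 in Th1 arrays. The Tfh marker Il21 was at 10.69 and 10.59 in Tfh arrays and 12.46 to 13.20 in Th17 and Th2 arrays. All 8 neutrophil markers were above the filter in both Tfh arrays, with a summed log2 level of 93.4 and 93.9, against 0 to 6 markers and sums of 19.3 to 44.5 in the cultured arrays. Regulatory T cell markers were above it for 6 of 6 in the Tfh arrays (sums of 69.5 in both) and for 5 in the cultured arrays (51.3 to 58.0). Of these, Foxp3 was at 10.79 and 10.73 against 2.36 to 2.40, and Ikzf2 at 12.89 and 12.84 against 4.39 to 7.16. Il2ra was lower in Tfh arrays, at 10.01 and 9.99 against 10.96 to 13.04, and Ctla4, Nrp1 and Tnfrsf18 overlapped the cultured arrays. Macrophage and dendritic cell markers were above the filter for 7 of 10 in the Tfh arrays (57.1 and 57.3). In the cultured arrays 3 to 9 were (27.04 to 73.6, the highest in Th2 replicate 1). Platelet markers were above it for 1 of 8 in the Tfh arrays (19.0 and 19.6) and for 2 to 4 in the cultured arrays (22.6 to 40.0). B cell markers were above it for 5 of 7 in the Tfh arrays (36.6 and 36.9) and for 4 to 5 in the cultured arrays (21.8 to 35.9). CD8 and NK cell markers were above it for 4 of 6 in the Tfh arrays (26.9 and 27.3) and for 4 to 5 in the cultured arrays (30.9 to 50.1). Fibroblast and stroma markers were above it for 0 of 6 in the Tfh arrays (15.3 and 15.4) and for 1 to 2 in the cultured arrays (16.5 to 17.2). The part of these other cells in the values of the 10 genes was not tested.

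The 250 bases before the annotated start were read from RefSeq's table for GRCm38.p6 for the members printed here, Tgfb1, Tgfbr1, Tgfbr2 and Smad3. These were not picked by their levels, and the other members are not printed. Capitals mark AGAC or its reverse complement GTCT, the short element that SMAD proteins are known to bind, and each sequence is given 5′ to 3′ on the strand of its gene. Tgfb1 lies on the plus strand at chr7:25686752-25687001, Tgfbr1 on the plus strand with starts at chr4:47352972-47353221 and chr4:47385966-47386215, Tgfbr2 on the minus strand at chr9:116175364-116175613, and Smad3 on the minus strand at chr9:63757995-63758244.
Tgfb1: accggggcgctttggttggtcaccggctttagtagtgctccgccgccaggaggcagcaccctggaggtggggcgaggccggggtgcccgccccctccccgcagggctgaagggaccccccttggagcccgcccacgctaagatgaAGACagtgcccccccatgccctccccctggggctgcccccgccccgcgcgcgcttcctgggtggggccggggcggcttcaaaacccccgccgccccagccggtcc
Tgfbr1 (first start): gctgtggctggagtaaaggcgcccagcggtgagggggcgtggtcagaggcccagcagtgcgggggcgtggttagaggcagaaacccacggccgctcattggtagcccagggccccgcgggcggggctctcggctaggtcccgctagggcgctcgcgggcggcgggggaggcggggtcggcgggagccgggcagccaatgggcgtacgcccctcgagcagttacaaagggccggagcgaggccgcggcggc
Tgfbr1 (second start): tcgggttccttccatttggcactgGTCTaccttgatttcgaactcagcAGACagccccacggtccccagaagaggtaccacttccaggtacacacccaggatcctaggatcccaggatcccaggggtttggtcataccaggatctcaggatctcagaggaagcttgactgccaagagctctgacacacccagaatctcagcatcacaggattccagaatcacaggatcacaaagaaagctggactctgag
Tgfbr2: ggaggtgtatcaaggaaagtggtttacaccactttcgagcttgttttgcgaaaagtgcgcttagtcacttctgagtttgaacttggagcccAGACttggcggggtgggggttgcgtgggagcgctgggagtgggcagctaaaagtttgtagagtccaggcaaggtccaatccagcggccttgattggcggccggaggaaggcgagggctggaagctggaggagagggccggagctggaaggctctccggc
Smad3: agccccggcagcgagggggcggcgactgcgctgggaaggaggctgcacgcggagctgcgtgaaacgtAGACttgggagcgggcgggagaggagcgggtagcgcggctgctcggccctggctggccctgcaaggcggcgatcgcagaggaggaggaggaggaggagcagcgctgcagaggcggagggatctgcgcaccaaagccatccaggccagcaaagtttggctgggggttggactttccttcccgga
AGAC was found once in the Tgfb1, Tgfbr2 and Smad3 windows, at 2 places before the second Tgfbr1 start, and at 0 before the first. On either strand AGAC is held by 82.9% of 32851 promoter windows of this length, and the longer form CAGAC, found before Tgfbr2 and the second Tgfbr1 start, by 42.2%. The palindrome GTCTAGAC is held by 0.167% of the windows and by 0 of these 5. The GC-rich element GGCGC, also known from SMAD binding, is held by 32% of the windows; it occurred 3 times before the first Tgfbr1 start and 1 time before Tgfb1. The windows were GC-rich before Tgfb1 (75.2%), the first Tgfbr1 start (74.8%) and Smad3 (69.2%), and less so before Tgfbr2 (58.4%) and the second Tgfbr1 start (52.8%). A match describes these letters and is neither a site nor a cause.

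Tfh cells had higher deposited levels of most of the 10 members than the cultured cells, from ligand to inhibitors. Against the cultured mean 8 of the 10 members rose and 0 fell, where 43.7% of all tested genes rose and 6.66% fell; a call needs a limma Benjamini-Hochberg adjusted p under 0.05 over all tested genes and a log2 difference of at least 1. Members that rose numbered 7 against Th17 cells (41.8% of all genes), 8 against Th1 cells (42.8%) and 7 against Th2 cells (42.8%), with 0 that fell in each (6.17%, 6.16% and 6.89% of all genes) and 0 lower at an unadjusted p under 0.05. Both Tfh arrays lay above all 6 cultured arrays for 9 of 10 members, as they did for 60.5% of tested genes. The median member was 2.42 log2 units higher in Tfh cells than in the cultured mean, against 0.84 for the median tested gene. These medians were 1.23 for the members and -0.35 for all genes with the median shift, and 1.33 and -0.17 with quantile normalization.

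The number of members called depended on the scaling. With the median shift 3 rose against Th17 cells, 5 against Th1 cells, 4 against Th2 cells and 6 against the cultured mean, where 13.5%, 14.4%, 15% and 14.8% of all genes rose. With quantile normalization 5, 5, 6 and 7 members rose in the same order of comparisons, where 14%, 15.6%, 16.1% and 15.7% of all genes rose. In all 3 scalings 6 members rose against the cultured mean (12.7% of all genes), namely Tgfbr1, Tgfbr2, Smad4, Smad7, Skil and Ldlrad4. Against Th17 cells these were Tgfbr2, Skil and Ldlrad4 (11.6% of all genes), and against Th1 cells Tgfbr1, Tgfbr2, Smad4, Skil and Ldlrad4 (12.4%). Against Th2 cells they were Smad4, Smad7, Skil and Ldlrad4 (13%). Skil and Ldlrad4 were the 2 members called in all 3 scalings in all 4 comparisons. The 4 comparisons share the Tfh arrays, so they do not repeat each other independently.

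**Figure D1:**
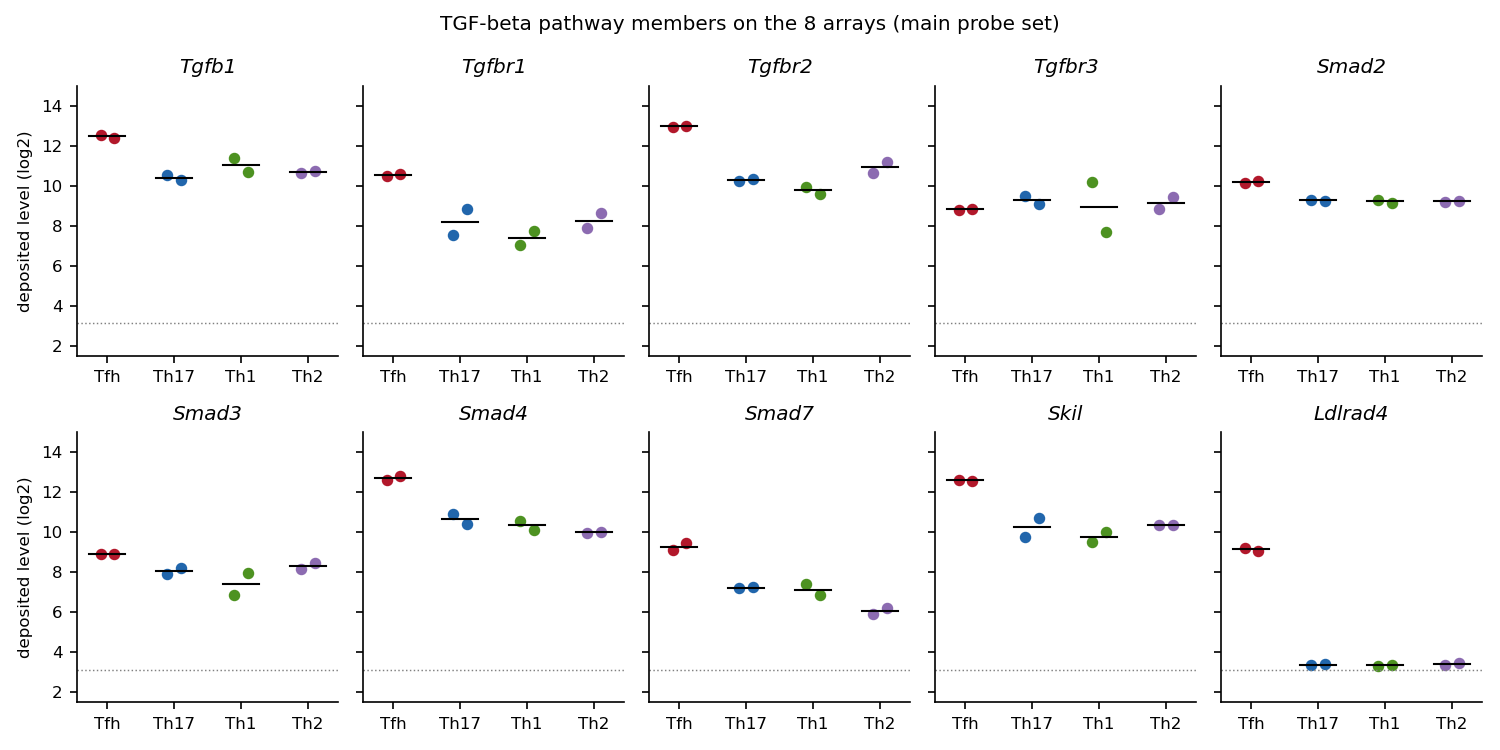
Deposited log2 level of each member's main probe set in Tfh, Th17, Th1 and Th2 arrays; points are single arrays, black bars the mean of the 2, and the dotted line the filter on low values (3.13). For 9 of the 10 genes both Tfh points lie above every cultured point, and Tgfbr3 is the exception.

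Tgfb1, the gene of the main TGF-beta ligand of immune cells, was abundant in all 4 types and highest in Tfh cells. Its level was 12.54 and 12.41 in Tfh arrays, 10.55 and 10.29 in Th17 arrays, 11.37 and 10.68 in Th1 arrays, and 10.65 and 10.75 in Th2 arrays. The Tfh arrays stood above all others, and the Th1 arrays overlapped the Th2 arrays. Tgfb1 rose by 1.76 log2 units against the cultured mean (SE 0.20, adjusted p = 0.000493), by 2.06 against Th17 cells, 1.45 against Th1 cells and 1.78 against Th2 cells. These calls depended on scaling: with arrays shifted to a common median they were 0.24 to 0.90 and none of the 4 was called, the one against the cultured mean being 0.57 (adjusted p = 0.0382). After quantile normalization the difference against Th1 cells was 0.85 and not called, while that against the cultured mean was 1.14 (adjusted p = 0.00339). A second Tgfb1 probe set with lower values, at 6.21 and 6.37 in Tfh arrays and 3.95 to 5.62 in cultured arrays, rose by 1.75 against the cultured mean (SE 0.45, adjusted p = 0.0141).

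Both kinase receptors were higher in Tfh cells, and the coreceptor was not. Tgfbr2, the type II receptor that binds the ligand first, was at 12.97 and 12.98 in Tfh arrays, 10.24 and 10.35 in Th17 arrays, 9.97 and 9.60 in Th1 arrays, and 10.66 and 11.19 in Th2 arrays. The 4 types did not overlap for this gene, and the order of their means was Tfh, Th2, Th17 and Th1. Tgfbr2 rose by 2.64 log2 units against the cultured mean (SE 0.17, adjusted p = 7.33e-05), which is 6.23-fold, and by 1.45 and 2.08 in the median-shifted and quantile-normalized values. Against Th2 cells alone the median shift gave 0.84, under the fold threshold. Its second probe set was at 8.41 and 8.49 in Tfh arrays and 5.66 to 7.40 in cultured arrays, and rose by 2.12 (SE 0.25, adjusted p = 0.000654).

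Tgfbr1, the type I receptor that phosphorylates Smad2 and Smad3, varied more within the cultured types. Its level was 10.49 and 10.58 in Tfh arrays, 7.53 and 8.86 in Th17 arrays, 7.06 and 7.74 in Th1 arrays, and 7.88 and 8.65 in Th2 arrays. The Tfh arrays were again above all others, while the 3 cultured types overlapped. Tgfbr1 rose by 2.58 against the cultured mean (SE 0.42, adjusted p = 0.00219), and by 2.34, 3.14 and 2.27 against Th17, Th1 and Th2 cells. The calls against Th17 and Th2 cells did not hold in either other scaling (adjusted p = 0.102 and 0.129 with the median shift, 0.0737 and 0.0851 with quantile normalization). They were also lost without Tfh replicate 2 (0.0510 and 0.0539), and that against Th2 cells without Th2 replicate 1 (0.0547). A second Tgfbr1 probe set, with lower values, rose by 1.56 against the cultured mean (SE 0.19, adjusted p = 0.000682).

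Tgfbr3, also called betaglycan, is a coreceptor that holds the ligand at the cell surface without a kinase of its own. It was not called in any Tfh comparison, and was the member whose Tfh arrays did not lie above all cultured arrays: it was at 8.81 and 8.86 in Tfh arrays, 9.48 and 9.08 in Th17 arrays, 10.22 and 7.68 in Th1 arrays, and 8.86 and 9.44 in Th2 arrays. The 2 Th1 arrays spanned all other values. The difference from the cultured mean was -0.29 (SE 0.64, 95% interval -1.87 to 1.29, adjusted p = 0.697). The comparison with Th1 cells hung on single Th1 arrays, since without Th1 replicate 1 the difference was 1.16 and called higher (adjusted p = 0.0282), and without Th1 replicate 2 it was -1.39 and called lower (adjusted p = 0.0159). With the arrays shifted to a common median the difference from the cultured mean was -1.48 (adjusted p = 0.0798). The second probe set gave -0.81 (adjusted p = 0.154).

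**Figure D2:**
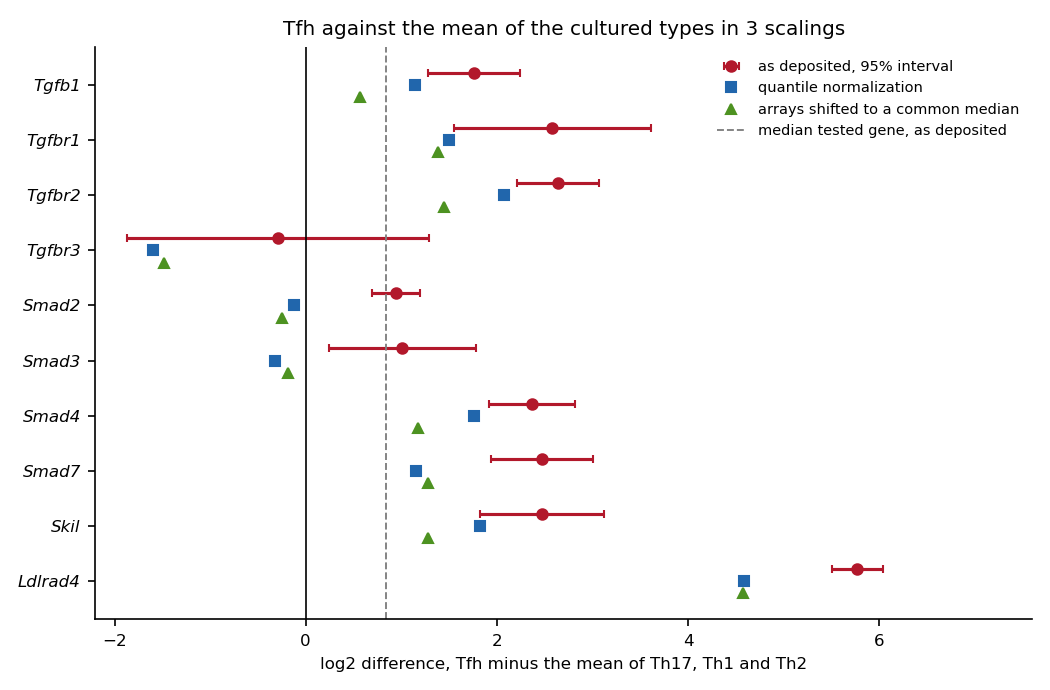
Log2 difference of each member between Tfh cells and the mean of Th17, Th1 and Th2 cells, as deposited with its 95% interval, after quantile normalization and after shifting the arrays to a common median. The dashed line marks the median tested gene as deposited (0.84). Both other scalings move every member left; Ldlrad4 stays above 4 in all 3, and Smad2 and Smad3 cross 0.

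The receptor-regulated SMADs showed the smallest differences of the members that were higher in Tfh cells. Smad2, phosphorylated by the type I receptor, was at 10.15 and 10.24 in Tfh arrays, 9.28 and 9.26 in Th17 arrays, 9.32 and 9.15 in Th1 arrays, and 9.22 and 9.26 in Th2 arrays. The 6 cultured arrays lay within a narrow range below both Tfh arrays. The difference from the cultured mean was 0.95 (SE 0.10, adjusted p = 0.000407), under the fold threshold, and close to the 0.84 of the median tested gene. Leaving out 1 array took it just past the fold threshold against Th1 cells (1.01 without Tfh replicate 1, 1.05 without Th1 replicate 1) and Th2 cells (1.0007 without Tfh replicate 1). It turned to -0.25 with the median shift and -0.12 with quantile normalization. A second Smad2 probe set, at 5.19 and 5.18 in Tfh arrays and 2.42 to 3.34 in cultured arrays, was called higher by 2.46 (SE 0.27, adjusted p = 0.000442), although 5 of the 6 cultured values were under the filter of 3.13, so that the difference is set against background.

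The probe sets of Smad3, the other receptor-regulated SMAD, disagreed in direction. The main probe set was at 8.95 in both Tfh arrays, 7.90 and 8.23 in Th17 arrays, 6.87 and 7.99 in Th1 arrays, and 8.16 and 8.48 in Th2 arrays. It was 1.01 higher in Tfh cells than in the cultured mean (SE 0.31, adjusted p = 0.0282), just past the fold threshold, and 1.52 higher than in Th1 cells (adjusted p = 0.0149), with no call against Th17 cells (0.88, adjusted p = 0.0890) or Th2 cells (0.63, adjusted p = 0.194). The other 2 probe sets did not repeat this rise. One was at 2.46 and 2.45 in Tfh arrays and 3.51 to 4.01 in cultured arrays and was called lower (-1.24, SE 0.15, adjusted p = 0.000758), although its Tfh values were under the filter of 3.13; the other, at 6.46 and 6.35 in Tfh arrays and 5.92 to 6.93 in cultured arrays, differed by -0.11 (adjusted p = 0.645). The call of the main probe set against the cultured mean was lost without either Tfh array (adjusted p = 0.129 each), Th17 replicate 1 (0.0557) or Th2 replicate 1 (0.0613), and without Th1 replicate 1 its difference was 0.82. Against Th1 cells it was lost without either Tfh array (adjusted p = 0.0710 and 0.0707), and without Th1 replicate 1 the difference was 0.96. In the other scalings it was -0.18 and -0.32 against the cultured mean.

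Smad4, the partner shared by all receptor-regulated SMADs, was higher in Tfh cells by all 3 of its probe sets. The main one was at 12.62 and 12.81 in Tfh arrays, 10.90 and 10.43 in Th17 arrays, 10.60 and 10.12 in Th1 arrays, and 10.00 and 10.04 in Th2 arrays. The Th2 arrays were the lowest, and the Th17 and Th1 arrays overlapped. Smad4 rose by 2.37 against the cultured mean (SE 0.18, adjusted p = 0.000123), by 1.18 in median-shifted and 1.76 in quantile-normalized values. The other probe sets rose by 2.04 and 2.17.

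All 3 inhibitors rose in Tfh cells. Smad7, an inhibitory SMAD that TGF-beta itself is known to induce and that blocks the receptors, was at 9.14 and 9.45 in Tfh arrays, 7.22 and 7.25 in Th17 arrays, 7.42 and 6.87 in Th1 arrays, and 5.91 and 6.24 in Th2 arrays. Th2 cells stood below the other cultured types, and the Th17 arrays lay between the 2 Th1 arrays. Smad7 rose by 2.47 against the cultured mean (SE 0.22, adjusted p = 0.000189), and by 1.28 and 1.16 in the other scalings. The rise was 3.22 against Th2 cells, 2.06 against Th17 cells and 2.15 against Th1 cells; against Th17 and Th1 cells both other scalings gave less than 1 (0.90 and 0.94 with the median shift, 0.79 and 0.81 with quantile normalization). The second Smad7 probe set was at 8.58 and 8.69 in Tfh arrays and 6.70 to 6.91 in the cultured arrays, a rise of 1.86 (SE 0.15).

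Skil encodes SnoN, a nuclear corepressor that binds SMADs at their targets. It was at 12.64 and 12.57 in Tfh arrays, 9.79 and 10.71 in Th17 arrays, 9.52 and 10.04 in Th1 arrays, and 10.39 and 10.38 in Th2 arrays. The Th17 arrays spanned the Th2 arrays and overlapped the Th1 arrays, and all lay below the Tfh arrays. Skil rose by 2.47 against the cultured mean (SE 0.26, adjusted p = 0.000412), which is 5.54-fold, and by 1.28 and 1.83 in the other scalings. Its second probe set rose by 1.84 (SE 0.20).

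Ldlrad4, a membrane protein that keeps receptor-regulated SMADs from the activated receptor, had the largest difference of the 10. It was at 9.24 and 9.06 in Tfh arrays, 3.35 and 3.42 in Th17 arrays, 3.32 and 3.38 in Th1 arrays, and 3.35 and 3.45 in Th2 arrays. The cultured arrays lay just above the filter of 3.13, and the 3 cultured types overlapped. Ldlrad4 rose by 5.77 log2 units against the cultured mean (SE 0.11, adjusted p = 6.75e-07), by 4.58 with the median shift and by 4.59 with quantile normalization. Its other probe sets did not carry a difference of that size: one was at 3.77 and 3.57 in Tfh arrays and 3.12 to 3.24 in cultured arrays, a difference of 0.51 (SE 0.07, adjusted p = 0.00118), and the remaining 2 did not pass the filter. The nearest gene to Ldlrad4 in pattern over the 8 arrays was Cd177, a surface protein of neutrophils, at 8.29 and 8.16 in Tfh arrays and 2.57 to 2.62 in cultured arrays (root mean square difference of centred log2 levels 0.0768). Neutrophil markers moved with the Tfh label in the same way, as given above, and their part in the Ldlrad4 difference was not tested.

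**Figure D3:**
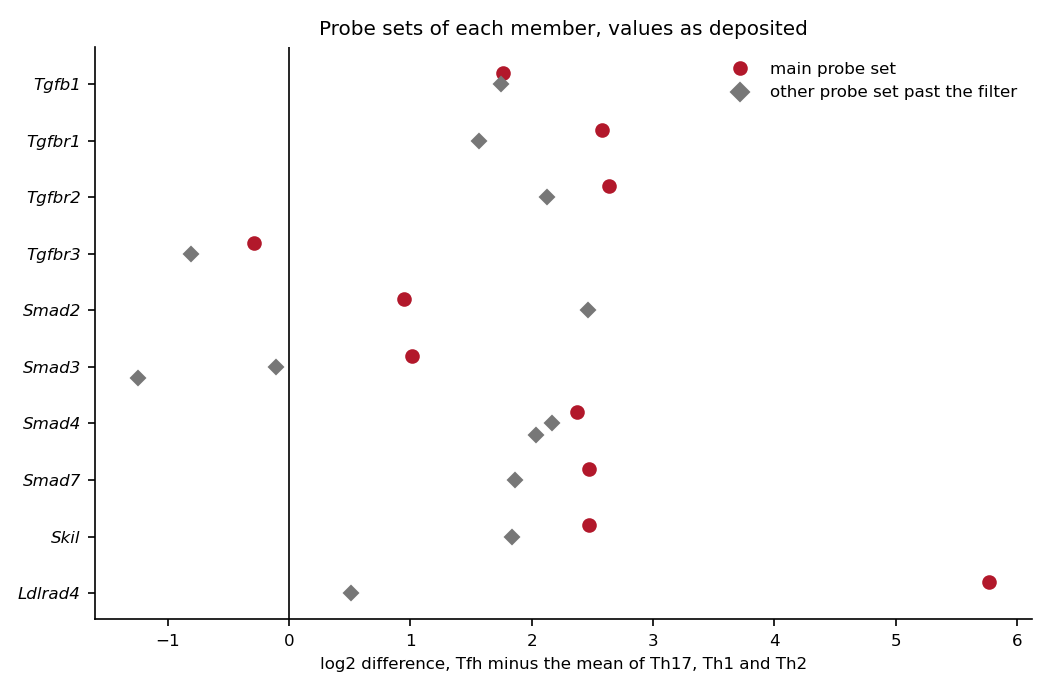
Log2 difference between Tfh cells and the mean of the cultured types for every probe set of a member that passed the filter, with the main probe set as a red circle and the others as grey diamonds. Probe sets of Tgfbr1, Tgfbr2, Smad4, Smad7 and Skil lie on 1 side of 0, and those of Smad3 on both.

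Among the other 12 probe sets past the filter, both Tfh arrays lay above all cultured arrays in 9 and below them all in 1, the Smad3 probe set described above. The 3 tested genes nearest in pattern were named for each called member by the same root mean square difference over the 8 arrays. For Tgfb1 they were Xpnpep3 (0.0957), Naglu (0.145) and Slx1b (0.149), for Smad4 Cep170b (0.113), Dhx57 (0.123) and Mark2 (0.124), and for Skil Ccdc126 (0.113), Dop1a (0.136) and Clk4 (0.143). For Smad7 they were Ube2d1 (0.172), Ppp6r1 (0.177) and Hdac6 (0.192), for Smad3 Tmem9b (0.162), P2rx4 (0.170) and Scp2 (0.186), and for Ldlrad4, after Cd177, Ncmap (0.0827) and Ttc28 (0.103). Both kinase receptors had more distant neighbours, Glmp (0.205), Gabarap (0.220) and Map3k2 (0.234) for Tgfbr2 and Prkab2 (0.230), Clcn4 (0.230) and Timp2 (0.237) for Tgfbr1. With 8 arrays in 4 groups this likeness mostly describes the step between Tfh and cultured arrays.

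Between the cultured types the design sets Th17 cells, which were given TGFb, against Th1 and Th2 cells, which were not. The cultures also differed in IL-6 and in the other cytokines and antibodies added, so the part of TGFb cannot be told apart. No member was called in limma between any pair: 0 of 10 for Th17 against Th1 (0.0805% of all genes higher and 0.0626% lower), 0 for Th17 against Th2 (0.188% and 0.483%) and 0 for Th1 against Th2 (0.349% and 0.895%). At an unadjusted p under 0.05 there were 1, 3 and 2 members. Every other alternative also called 0 members in these pairs, so the widths of the intervals say how far the comparison reaches.

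Smad7, the member best known as a TGF-beta target, was 0.09 higher in Th17 than in Th1 cells (95% interval -0.56 to 0.74). It was 1.16 higher in Th17 than in Th2 cells (0.51 to 1.81, adjusted p = 0.144) and 1.07 higher in Th1 than in Th2 cells (0.42 to 1.72, adjusted p = 0.139), with no overlap of the arrays in either pair. The second Smad7 probe set gave 0.056 and 0.013 for these pairs, so the lower level in Th2 cells rests on the main probe set. Skil, another known target, was 0.47 higher in Th17 than in Th1 cells (-0.32 to 1.27) and differed by -0.13 from Th2 cells (-0.93 to 0.66).

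For the receptor Tgfbr2 the arrays of the 3 cultured types did not overlap. Th17 minus Th1 was 0.51 (-0.01 to 1.04), Th17 minus Th2 was -0.63 (-1.16 to -0.11, adjusted p = 0.280), and Th1 minus Th2 was -1.15 (-1.67 to -0.62, adjusted p = 0.0807). The second Tgfbr2 probe set gave 0.46, -0.74 and -1.20 for the same pairs, in the same order. Tgfb1 was 0.61 lower in Th17 than in Th1 cells as measured (difference -0.61, interval -1.20 to -0.01, adjusted p = 0.499), and Smad4 was 0.65 higher in Th17 than in Th2 cells (0.09 to 1.20, adjusted p = 0.292). None of these passed the adjusted threshold.

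The tightest intervals were those of Smad2 and Ldlrad4, at -0.26 to 0.34 and -0.29 to 0.36 for Th17 minus Th1. The widest were those of Tgfbr3, at -1.60 to 2.27 for Th17 minus Th1, set by the gap between the Th1 arrays. The intervals of Tgfbr1 (-0.47 to 2.06) and Smad3 (-0.31 to 1.58) for that pair also held differences of over 1 log2 unit.

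**Figure D4:**
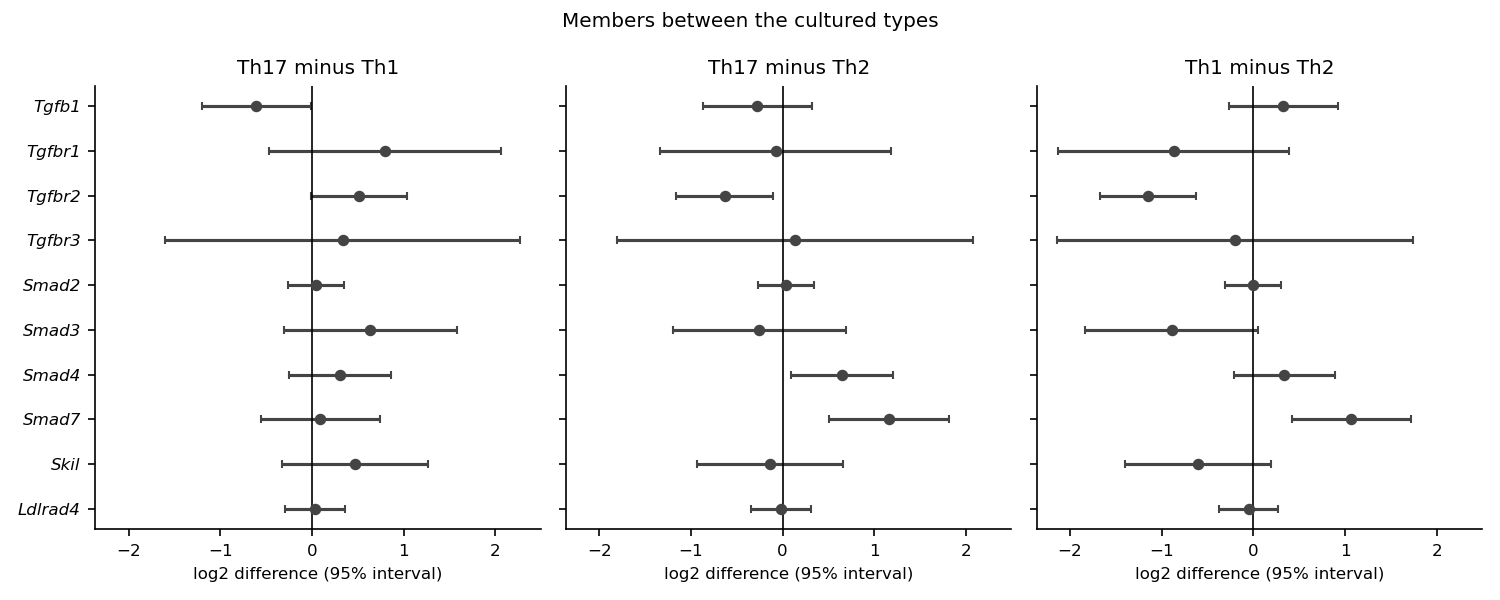
Log2 difference of each member for Th17 minus Th1, Th17 minus Th2 and Th1 minus Th2, with 95% intervals from limma. Most intervals cross 0. In both comparisons with Th2 cells those of Smad7 lie above 0 and those of Tgfbr2 below 0. That of Smad4 lies above 0 for Th17 minus Th2, and that of Tgfb1 below 0 for Th17 minus Th1.

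Other genes of the pathway were described through 6 lists. Of the genes that make, hold and release latent TGF-beta, 7 of 17 were tested, and 2 rose and 1 fell against the cultured mean (43.7% and 6.66% of all genes, as above). Itgb8, the integrin subunit that with Itgav releases active TGF-beta from its latent complex, was at 10.53 and 10.77 in Tfh arrays and 3.33 to 3.82 in cultured arrays. It rose by 7.16 (SE 0.17, adjusted p = 1.57e-06), and by 5.97 and 6.16 in the other scalings, a larger difference than that of any of the 10 members. Its partner Itgav was at 12.49 and 12.48 in Tfh arrays and differed by 0.93 (SE 0.10), under the fold threshold. Ltbp3, which binds the latent ligand in the matrix, was at 3.89 and 3.75 in Tfh arrays and 4.75 to 5.75 in cultured arrays, and fell by 1.47 (SE 0.25, adjusted p = 0.00270). Mmp9, a protease also stored in neutrophil granules, rose by 3.03 (SE 0.65, adjusted p = 0.00697), with adjusted p = 0.0518 without Tfh replicate 1.

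Among other receptors of the family, 9 of 14 were tested, and 2 rose and 1 fell, where 43.7% and 6.66% of all genes did. Bmpr2, a type II receptor for bone morphogenetic proteins, was at 9.31 and 9.25 in Tfh arrays and 5.93 to 6.98 in cultured arrays, a rise of 2.65 (SE 0.22, adjusted p = 0.000171) that was called in all 3 scalings. Acvr1b, the type I receptor for activins, rose by 2.08 (SE 0.31), but by 0.88 and 0.64 in the other scalings, where it was not called. Bmpr1a fell by 1.88 (SE 0.53, adjusted p = 0.0206); without either Tfh array the adjusted p was 0.103 and 0.105.

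Of 17 partners of the SMADs, 14 were tested, and 9 rose and 1 fell, where 43.7% and 6.66% of all genes did. In all 3 scalings 2 rose, where 12.7% of all genes did, and 1 fell, where 741 of 11178 genes did. Crebbp, an acetyltransferase that SMADs recruit, was at 11.98 and 11.86 in Tfh arrays and 9.40 to 9.65 in cultured arrays, a rise of 2.40 (SE 0.10, adjusted p = 1.18e-05). Sp1, a general transcription factor that works with SMADs, rose by 1.36 as deposited but by 0.17 after the median shift. Foxh1, a SMAD2 partner known from the early embryo, fell by 1.04 (SE 0.08) between values of 2.72 and 2.68 in Tfh arrays and 3.68 to 3.95 in cultured arrays; without Th1 replicate 2 its difference was -0.997. Both Tfh values were under the filter of 3.13, so it passed the filter through the cultured arrays alone.

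All 21 genes listed as other regulators of the signal were tested, and 14 rose and 1 fell against the cultured mean (43.7% and 6.66% of all genes). The list is not confined to inhibitors, so its counts do not measure inhibition. In all 3 scalings 3 rose, a share near the 12.7% of all genes, and 0 fell, where 741 of 11178 genes did. Tgif1, a homeodomain corepressor of SMAD targets, was at 11.60 and 11.57 in Tfh arrays and 7.83 to 8.63 in cultured arrays, a rise of 3.23 (SE 0.19, adjusted p = 4.97e-05). Usp11, a deubiquitinase, rose by 2.94 (SE 0.12) and by 1.74 and 1.65 in the other scalings. It was at 5.70 and 6.11 in Tfh arrays and 2.92 to 3.13 in cultured arrays, at or near the filter, so it passed the filter through the Tfh arrays and its differences are set against background. Rnf111, a ubiquitin ligase that acts on SnoN and Smad7, rose by 1.99 (SE 0.13), but by 0.79 after the median shift. The ubiquitin ligase genes Smurf1 and Smurf2, partners of Smad7, rose by 1.88 (SE 0.20) and 1.39 (SE 0.18); both were chosen after their values were seen and neither was called in all 3 scalings.

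Dab2, an adaptor of receptor trafficking and the 1 member of that list that fell, was high in both Th17 arrays and 1 Th2 array. It was at 2.25 and 2.38 in Tfh arrays, 8.90 and 9.68 in Th17 arrays, 2.28 and 2.40 in Th1 arrays, and 6.72 and 2.17 in Th2 arrays. Both Th17 arrays stood above all others, 1 of the 2 Th2 arrays stood apart from its partner, and the Tfh and Th1 values were under the filter of 3.13. Th17 minus Th1 was 6.95 (SE 1.36, adjusted p = 0.203) and Th17 minus Th2 was 4.85 (adjusted p = 0.214), and neither was called. Without Th2 replicate 1, which also had the highest macrophage and platelet marker sums, both were called, at 6.95 (adjusted p = 0.00833) and 7.12 (adjusted p = 0.00353); without Th2 replicate 2 the first was called too (adjusted p = 0.00869). The macrophage and dendritic cell marker sums were 59.6 and 42.2 in the Th17 arrays, against 27.04 to 35.9 in the Th1 arrays, and their part in the Dab2 values was not tested. Its fall of 3.04 in Tfh cells against the cultured mean (SE 1.11, adjusted p = 0.0492) was lost without either Tfh, Th17 or Th1 array (adjusted p = 0.0756 to 0.183).

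The list of genes known to respond to TGF-beta held 27 symbols, of which Ctgf and Ccn2 name the same gene. It shares Runx1 with the list of SMAD partners, so the rise of Runx1 counts in both. Of these symbols 21 were tested, and 8 rose and 4 fell in Tfh cells against the cultured mean. Of all tested genes 43.7% rose and 6.66% fell. In all 3 scalings 3 rose, near the 12.7% of all genes, and 4 fell, where 741 of 11178 genes did. The list holds genes that TGF-beta induces and genes that it represses, so these counts give no direction of response. Itgae, the CD103 integrin subunit that TGF-beta induces on T cells, was at 8.32 and 8.35 in Tfh arrays, 5.04 and 5.06 in Th17 arrays, 3.24 and 3.79 in Th1 arrays, and 6.07 and 6.98 in Th2 arrays. It rose by 3.31 against the cultured mean (SE 0.29, adjusted p = 0.000183), and Th17 minus Th1 was 1.54 (SE 0.35, adjusted p = 0.257), not called. Il9, a cytokine that TGF-beta with IL-4 induces, fell by 1.06 (SE 0.05) against the cultured mean, since it was at 4.90 and 4.99 in Th2 arrays and at 2.21 to 2.48 in all others. It passed the filter through the Th2 arrays alone.

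No gene of these lists was called between Th17 cells, given TGFb, and Th1 cells. The part of single arrays was looked at for some of these genes only. The outcome hung on them for Dab2, as above, and also for Mmp9 and Id3. Mmp9 was 2.38 higher in Th17 cells (adjusted p = 0.402). It was at 6.76 and 4.09 in Th17 arrays and at 2.97 and 3.12 in Th1 arrays, both under the filter of 3.13. Without Th17 replicate 2, which had the lower macrophage and dendritic cell marker sum, the Mmp9 difference was 3.71. Id3 was 2.12 higher in Th17 than in Th1 cells (adjusted p = 0.259), and 2.87 higher without Th1 replicate 2. Between Th17 and Th2 cells Id3, an inhibitor of E proteins, was at 9.45 and 9.71 in Th17 arrays and 6.04 and 5.62 in Th2 arrays, a difference of 3.75 (SE 0.50, adjusted p = 0.0474). That call was lost without any 1 array of the Tfh, Th17 or Th2 groups (adjusted p = 0.0827 to 0.176). Il9 was lower in Th17 than in Th2 cells by 2.49 log2 units (difference -2.49, SE 0.06, adjusted p = 8.42e-05); its Th17 values were under the filter of 3.13, so this difference is set against background. Ccr8, a chemokine receptor, differed by -5.61 (SE 0.86, adjusted p = 0.0706), with adjusted p = 0.0496 without Th1 replicate 2 and 0.0487 without Th17 replicate 1. Eomes, a T-box factor that TGF-beta is known to repress, was at 4.91 and 6.75 in Th17 arrays and 8.76 and 9.07 in Th1 arrays, a difference of -3.09 (SE 0.72, adjusted p = 0.259) that was not called.

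All 11 genes of the kinase branch, which runs beside the SMADs from the receptors to p38 and JNK, were tested, and 6 rose and 1 fell against the cultured mean (43.7% and 6.66% of all genes). In all 3 scalings 1 rose, near the 12.7% of all genes, and 1 fell, where 741 of 11178 genes did. Tab1, the partner of the kinase TAK1, was at 7.08 and 7.13 in Tfh arrays and 3.22 to 4.20 in cultured arrays, a rise of 3.66 (SE 0.23, adjusted p = 5.97e-05). Map3k7, which encodes TAK1 itself, was at 10.34 and 10.37 in Tfh arrays and differed by 0.78 (SE 0.10), under the fold threshold. Map2k3, a kinase that activates p38, rose by 1.65 (SE 0.17) but by 0.46 after the median shift. Between the cultured types no gene of this branch was called.

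**Figure D5:**
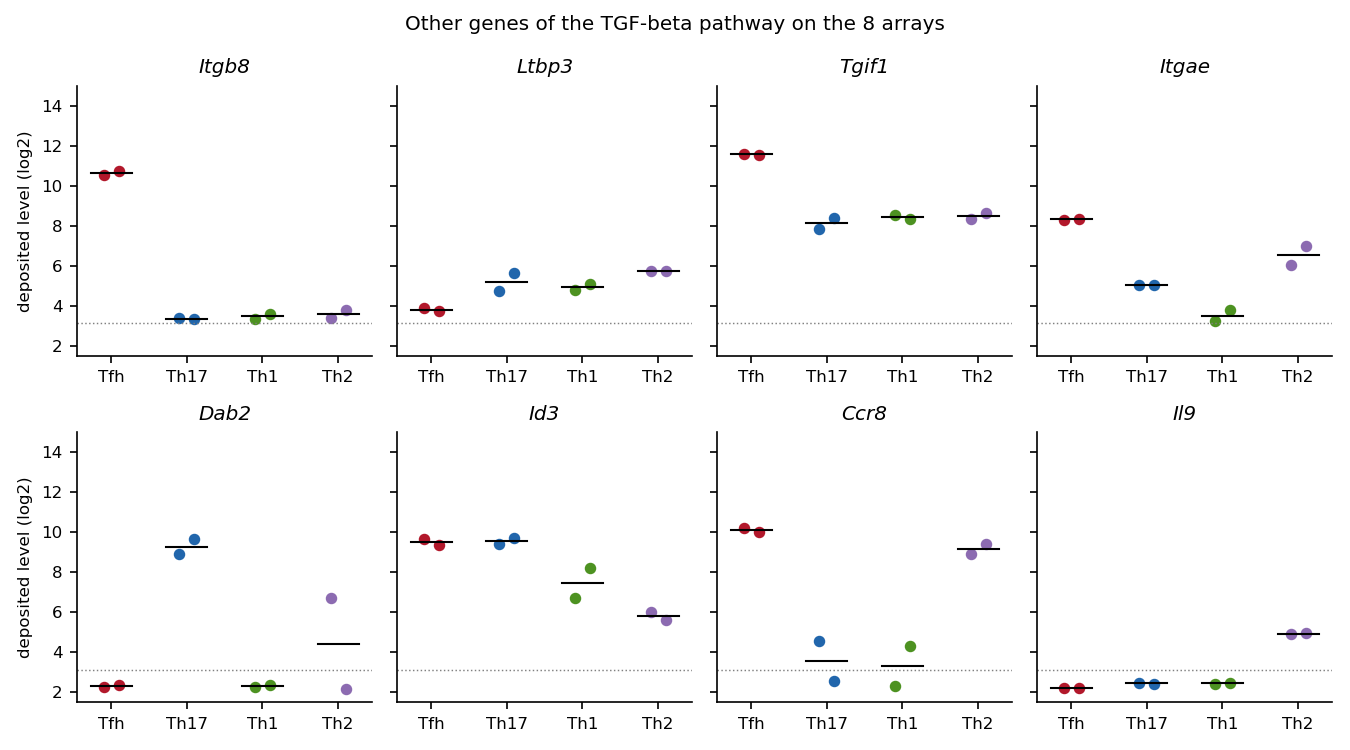
Deposited log2 levels of 8 other pathway genes in Tfh, Th17, Th1 and Th2 arrays, picked for the plot after their values were seen; points are single arrays, bars the mean of the 2, and the dotted line the filter (3.13). Itgb8 is high in Tfh arrays and near the filter elsewhere, Dab2 is high in both Th17 arrays and 1 Th2 array, and Il9 is above the filter in Th2 arrays.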

How the data were processed

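RNA from 4 mouse helper T cell types, 2 samples each, was labelled with biotin by in vitro transcription and read on 8 Affymetrix arrays of 45101 probe sets. Per the submitters' processing notes the authors summarized the arrays with GCRMA, so the deposited values are log2 levels; its version, and the set of arrays normalized together, are not given in the sources used here. Precision is limited by the number of arrays.

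Probe sets were named through the platform annotation; 34945 had 1 gene symbol and 932 had several, and the latter were not used. Per gene the probe set with the highest mean was kept (18193 genes). The filter kept the 11178 genes that exceeded 3.13, the 50th percentile over the whole table, on 2 or more arrays.

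Differences were fitted with limma 3.58.1 (R 4.3.3): all 8 arrays entered, each group had its own coefficient, and the variance prior followed mean level, with 4 residual degrees of freedom and a prior worth 1.78. P-values are two-sided. Calls needed a Benjamini-Hochberg adjusted p under 0.05 over all tested genes and an absolute log2 difference of at least 1. SE and 95% intervals are those of the moderated fit. The 3 scalings were the values as they came, arrays shifted to a common median of the tested genes, and quantile normalization. The fit was tested on simulated data.

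The 10 members, the 6 pathway lists and the marker lists were chosen with earlier results of these data known. Pathway genes named were, per list, at most 3 with the smallest adjusted p against the cultured mean and in Th17 against Th1 or Th2. Others were named after their values were seen: Mmp9, Bmpr1a, Dab2, Smurf1 and Smurf2 against the cultured mean, and Id3 in Th17 against Th1. Neighbours in pattern were the 3 genes with the smallest root mean square difference of centred levels, leaving out Rik, Gm and LOC symbols. Promoter windows came from RefSeq tables of GRCm38.p6. Other alternatives were other filters, probe set rules, variance models and fold thresholds, fits on fewer arrays, the replicate number as a block, the Tfh arrays as 1 sample, and leaving out each array. Plots used matplotlib 3.10.9 in Python 3.11.15.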

Additional observations from a re-analysis of the deposited data

How the results depend on the processing

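Scaling mattered most. With arrays shifted to a common median, 3 members were called against Th17 cells, 5 against Th1 cells and 4 against Th2 cells; after quantile normalization 5 were called against Th1 cells. Leaving out 1 array gave 6 to 7, 7 to 9 and 6 to 8 calls for the same 3 comparisons. Without a fold threshold the counts were 8, 9, 8 and, against the cultured mean, 9, and they changed no direction. Of all 11178 genes 6049, 6103, 6058 and 6606 were then called higher, in the same order. Of the differences of single members in Tfh comparisons, 678 kept their direction and side of the threshold under an alternative, 38 lost a call, 16 gained one and 26 turned sign; between cultured types 549 kept both and 27 turned sign. The cause of these changes was not tested.

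Smad2 turned sign in Tfh cells after the median shift (-0.24 against Th17 cells, -0.24 against Th1 cells, -0.26 against Th2 cells, -0.25 against the mean) and quantile normalization (-0.14, -0.10, -0.12 and -0.12). Smad3 turned to -0.28, -0.58 and -0.18 against Th17 cells, Th2 cells and the mean after the median shift, to -0.42, -0.69 and -0.32 after quantile normalization, and to -0.14, -0.37 and -0.12 with the mean of all probe sets. Its dimmest probe set gave -1.18, -1.22, -1.33 and -1.24 against Th17, Th1, Th2 cells and the mean, and its middle one gave -0.13 against Th17 cells, -0.40 against Th2 cells and -0.11 against the mean. With the mean of all probe sets Smad2 was called in all 4 Tfh comparisons and Smad3 in none. With the Tfh arrays as 1 sample, the calls lost were Smad3 against Th1 cells (adjusted p = 0.0710) and the mean (0.129) and Tgfbr1 against Th2 cells (0.0512). Without single arrays Tgfbr3 ranged from -1.39 to 1.16 against Th1 cells and from -0.72 to 0.13 against the mean.

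Among cultured pairs the sign turned for differences near 0. Ldlrad4 in Th17 minus Th1 was -0.013 after the median shift, -0.014 with the mean of probe sets and -0.059 with its second probe set, which gave 0.0069 for Th1 minus Th2. Smad2 was -0.0062 in Th17 minus Th1 and -0.017 in Th17 minus Th2 after the median shift. Smad3 was -0.038 in Th17 minus Th1 with its dimmest probe set, Smad4 in Th1 minus Th2 was -0.12 and -0.21 with its other probe sets, Skil in Th17 minus Th2 was 0.11 with its second probe set, and Tgfbr3 there was -0.0011 with the mean of probe sets and -0.13 with the second. Without single arrays the ranges were, for Th17 minus Th2, -0.068 to 0.032 (Ldlrad4), -0.59 to 0.32 (Skil), -0.74 to 0.59 (Tgfbr1) and -0.16 to 0.42 (Tgfbr3). For Th17 minus Th1 they were -0.045 to 0.13 (Smad2), -0.18 to 0.37 (Smad7) and -0.94 to 1.61 (Tgfbr3), and for Th1 minus Th2 -0.091 to 0.080 (Smad2), -0.019 to 0.68 (Tgfb1) and -1.47 to 1.07 (Tgfbr3).

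Groups share replicate numbers, but same-numbered arrays did not deviate together in every pair (correlations of -0.002 to 0.268), so the numbers were not taken as a pairing. With the replicate block 7, 8, 7 and 8 members were called against Th17, Th1, Th2 cells and the mean, and 0 in each cultured pair, with no member's call changed. The fit on the groups compared alone gives no value against the mean, which needs all groups.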
